A study of Sus scrofa with 4 samples.

Results

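The genes described here encode the vascular endothelial growth factors (VEGFs), the angiopoietins and the receptor tyrosine kinases that bind them. They were chosen by gene name: VEGFA, VEGFB, VEGFC, ANGPT1 and ANGPT2 as ligands, and KDR, FLT1, FLT4, TEK and TIE1 as receptors. Of these 10 genes, 9 had a row among the 29263 genes of the deposited count tables, and all 9 were among the 19682 genes that passed the filter on low counts. VEGFB was not analysed here.

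RNA sequencing compared lung cells from pigs with the LGR5-H2B-GFP knock-in genotype. The knock-in labels the nuclei of cells that transcribe LGR5, a receptor for the Wnt-amplifying R-spondins, with a green fluorescent histone (GFP). Every library comes from this genotype: 2 libraries (biological replicates 1 and 2) are cells sorted as GFP-HI and 2 are cells sorted as GFP-NEG. The protocol covers adult and fetal lung together and names optional EPCAM and NGFR antibodies without saying which apply. The name of the deposited comparison table contains the word adult, preceded by the letter D and a number. Whether that is an age in days is not stated. The labels themselves give no age in days, and nothing says how many animals were pooled.

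VEGFs and angiopoietins act mainly on blood vessels. VEGFA binds KDR, which carries most of the growth signal in endothelial cells, and FLT1, which binds it tightly and signals weakly. VEGFC and VEGFD bind FLT4, the receptor of lymphatic endothelium. ANGPT1 is made by mesenchymal and mural cells and activates TEK (also called TIE2) on endothelium, where it stabilises vessels. ANGPT2 is released by endothelial cells and can oppose ANGPT1. TIE1 is a partner of TEK without a high-affinity ligand of its own. In lung, epithelial cells are a known source of VEGFA, and capillary growth accompanies the formation of alveoli.

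The GFP-HI libraries held 24200550 and 24689986 counts and the GFP-NEG libraries 6292253 and 7045652, so 1 count was worth 0.0453 to 0.0496 CPM (counts scaled to a library of 1000000) in GFP-HI against 0.110 to 0.155 CPM in GFP-NEG. Depth and group therefore move together. The number of genes with a count went the other way, at 18752 and 18392 in GFP-HI against 24120 and 25985 in GFP-NEG. LGR5 stood at 146 and 152 CPM in GFP-HI against 1.55 and 0.767 CPM in GFP-NEG, in the direction of the labels. The summed level of 9 fibroblast markers was 81800 and 72300 CPM in GFP-HI against 25300 and 9020 CPM in GFP-NEG replicates 1 and 2. Of all tested genes, 8.35% were called higher and 27.6% lower in GFP-HI with the quasi-likelihood test of edgeR (threshold 0.05 after Benjamini-Hochberg adjustment over all tested genes), and the median log2 fold change was -0.25. Among the 11885 tested genes with a symbol and a mean of at least 2 CPM, a floor chosen after the values were seen, 12.6% were called higher and 12.1% lower. Their median log2 fold change was 0.33. Nothing states whether the replicates are separate animals, apart from column headings that name pig 1 and pig 2. The p-values therefore apply to these libraries only. In edgeR, the standard error (SE) and p rest on a scatter pooled over genes, so they do not measure a gene's own spread between replicates.

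The receptors lay lower in GFP-HI, and the ligands did not move as a group. Of the 5 receptors, 4 were called lower in GFP-HI (KDR, FLT4, TEK and TIE1) and 0 higher, and FLT1 was not called. The median log2 fold change of the 5 was -2.34. Of the 4 ligands measured, ANGPT1 and VEGFA were called higher, ANGPT2 was called lower and VEGFC was not called, with a median of 1.13. The background for these counts is the 27.6% of all tested genes called lower and the 8.35% called higher. DESeq2, the second tool, called the same 4 receptors and ANGPT2 lower and ANGPT1 higher but not VEGFA, against a background of 24.9% lower and 5.60% higher among the 24178 genes it tested. All CPM below are scaled with TMM factors, which correct library totals for composition, and are read between libraries of the same gene only, because the counts are not corrected for gene length.

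**Figure D1:**
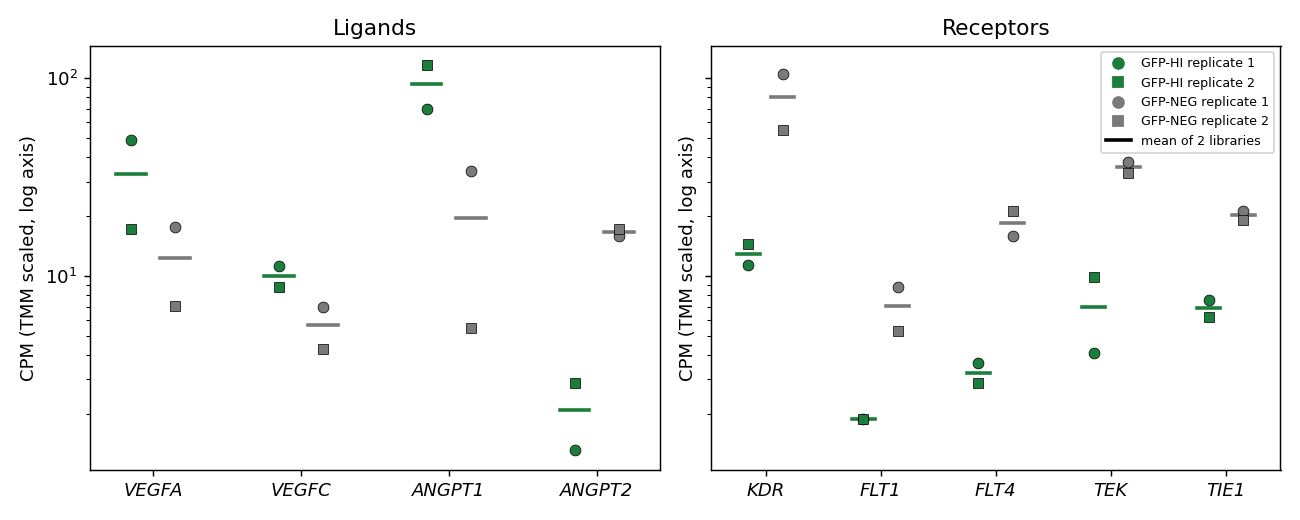
CPM (TMM scaled, log axis) of the 4 ligands and 5 receptors in each library, with circles for replicate 1, squares for replicate 2 and bars for the mean of 2 libraries (GFP-HI green, GFP-NEG grey). All 5 receptors and ANGPT2 lie lower in both GFP-HI libraries than in both GFP-NEG libraries, VEGFC and ANGPT1 lie higher, and VEGFA overlaps at 17.3 and 17.7 CPM. Of all tested genes, 42.0% lie lower in this way and 27.7% higher. Heights are not comparable between genes.

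ANGPT1, the activating ligand of TEK, stood at 70.0 and 116 CPM in GFP-HI (1544 and 2345 counts) and at 34.0 and 5.48 CPM in GFP-NEG (219 and 50 counts). Both GFP-HI libraries lay above both GFP-NEG libraries, and the GFP-NEG libraries differed from each other by 6.20 times, the widest replicate gap among the 9 genes. ANGPT1 rose by 2.24 ± 0.54 on the log2 scale (SE, adjusted p = 0.00024, edgeR). The SE from DESeq2 was larger, at 0.73 (adjusted p = 0.011, DESeq2). The log2 ratio of the libraries sharing a replicate number was 1.04 for replicate 1 and 4.41 for replicate 2. The size of the ANGPT1 change therefore depended on single libraries. Its log2 fold change was 4.13 without GFP-NEG replicate 1, and 1.42 without GFP-NEG replicate 2 (adjusted p = 0.31, edgeR). Without GFP-HI replicate 2 it was 1.87 and also not called (adjusted p = 0.082, edgeR).

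VEGFA, the main growth factor for blood vessels, stood at 48.7 and 17.3 CPM in GFP-HI (1074 and 348 counts) and at 17.7 and 7.02 CPM in GFP-NEG (114 and 64 counts). The groups overlapped, since GFP-HI replicate 2 lay just under GFP-NEG replicate 1, while replicate 1 was the higher library in each fraction. VEGFA was called higher at a log2 fold change of 1.42 ± 0.56 (SE, adjusted p = 0.033, edgeR). The log2 ratio within replicates was 1.46 and 1.30. This call did not hold throughout: DESeq2 gave an adjusted p of 0.11, the authors' deposited table gives 0.11, and scaling by library totals alone gave 0.14. Without GFP-HI replicate 1 the log2 fold change was 0.60, without GFP-NEG replicate 2 it was 0.86 (adjusted p = 0.56 and 0.61, edgeR), and without GFP-NEG replicate 1 it was 2.28. The counts are per gene and do not separate the splice forms of VEGFA.

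VEGFC, the ligand of FLT4 and a driver of lymphatic growth, stood at 11.3 and 8.82 CPM in GFP-HI against 6.99 and 4.28 CPM in GFP-NEG. Both GFP-HI libraries were above both GFP-NEG libraries, an arrangement found in 27.7% of all tested genes. With 249 and 178 counts against 45 and 39, its log2 fold change of 0.84 ± 0.74 (SE) was not past the threshold (adjusted p = 0.40, edgeR), and no alternative called it.

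ANGPT2, the angiopoietin of activated endothelium, moved opposite to ANGPT1. It stood at 1.31 and 2.88 CPM in GFP-HI (29 and 58 counts) and at 16.0 and 17.3 CPM in GFP-NEG (103 and 158 counts). The GFP-NEG libraries differed by 1.08 times, and both lay well above both GFP-HI libraries. ANGPT2 fell by 2.99 on the log2 scale (SE 0.74, adjusted p = 0.00037, edgeR), the largest change among the 9 genes with all 4 libraries, and it was called in all 13 alternatives. It was not the largest in every one: without GFP-HI replicate 1 it was at -2.39 against 2.65 for ANGPT1 and -2.54 for FLT4, without GFP-NEG replicate 1 at -2.99 against 4.13 for ANGPT1, and without GFP-NEG replicate 2 at -2.97 against -3.07 for KDR. Within each library the ratio of ANGPT1 to ANGPT2 counts, which does not depend on scaling, was 53.2 and 40.4 in GFP-HI against 2.13 and 0.316 in GFP-NEG. That ratio was 56.6 times higher in GFP-HI as a geometric mean of 2 libraries a group, and its GFP-NEG values spread by 1.94 on the log2 scale (SD).

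KDR, the principal VEGFA receptor of endothelium, stood at 11.3 and 14.5 CPM in GFP-HI (250 and 293 counts) and at 105.4 and 54.9 CPM in GFP-NEG (679 and 501 counts). The lower GFP-NEG library was still far above the higher GFP-HI library. KDR fell by 2.63 on the log2 scale (SE 0.54, adjusted p = 3e-05, edgeR), the smallest p among the 9 genes, and leaving out each library gave values from -3.07 to -2.04, each called.

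FLT1, the decoy-like receptor shared by VEGFA, VEGFB and PGF, had 42 and 38 counts in GFP-HI against 57 and 48 in GFP-NEG, the lowest counts of any receptor. This corresponds to 1.90 and 1.88 CPM in GFP-HI and to 8.85 and 5.26 CPM in GFP-NEG. The groups did not overlap, as for 42.0% of all tested genes in this direction. Its log2 fold change of -1.89 ± 0.95 (SE) was not called (adjusted p = 0.11, unadjusted p = 0.047, edgeR), nor was it called in any of the 13 alternatives. The authors' deposited table gives -1.90 with an adjusted p of 0.078. Membrane-bound and soluble FLT1 cannot be separated in gene counts.

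FLT4, the VEGFC and VEGFD receptor, stood at 3.62 and 2.88 CPM in GFP-HI against 15.8 and 21.4 CPM in GFP-NEG. Here GFP-NEG replicate 2 was the higher of its group, the opposite of KDR. FLT4 fell by 2.52 on the log2 scale (SE 0.69, adjusted p = 0.0013, edgeR), and it was called without each library in turn.

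TEK, the angiopoietin receptor, stood at 4.08 and 9.87 CPM in GFP-HI (90 and 199 counts) and at 37.6 and 33.2 CPM in GFP-NEG (242 and 303 counts). The GFP-NEG libraries were close, and GFP-HI replicate 2 carried 2.42 times the level of replicate 1. TEK fell by 2.34 on the log2 scale (SE 0.58, adjusted p = 0.00032, edgeR). Without GFP-HI replicate 1 the value was -1.70 and was not called (adjusted p = 0.076, edgeR).

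TIE1, the partner of TEK, had the closest replicates of the called receptors, with 7.52 and 6.20 CPM in GFP-HI against 21.4 and 19.3 CPM in GFP-NEG. No library of one group reached the other. It fell by 1.57 on the log2 scale (SE 0.62, adjusted p = 0.034, edgeR). With any 1 library left out the values stayed between -1.68 and -1.35 and none was called (adjusted p from 0.12 to 0.17, edgeR), and DESeq2 with the replicate number as a block gave an adjusted p of 0.13.

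**Figure D2:**
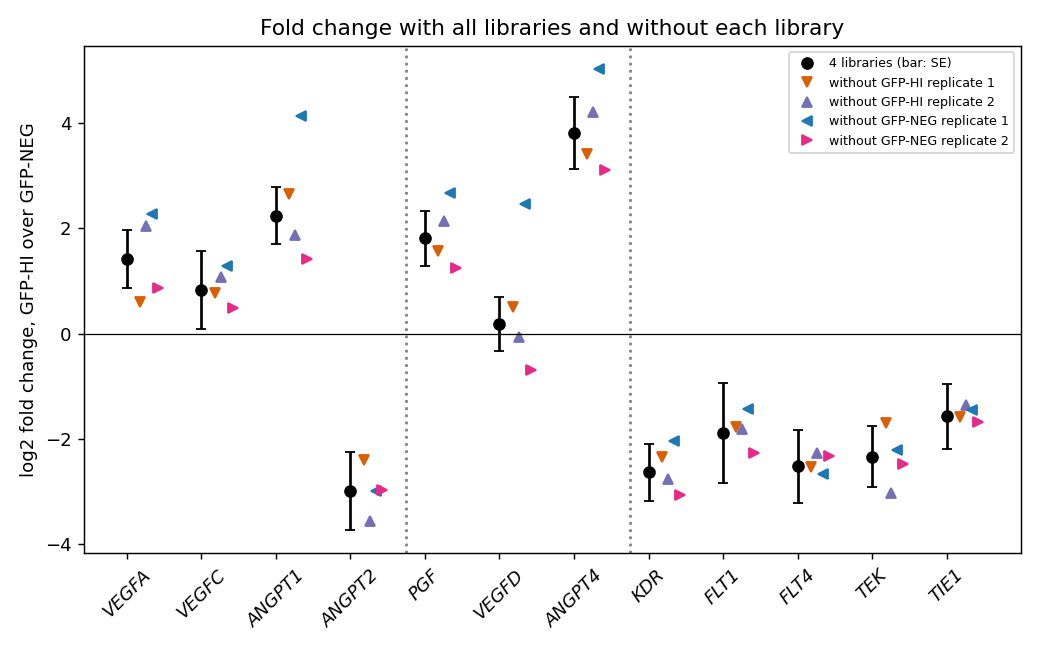
Log2 fold change (GFP-HI over GFP-NEG) of the ligands, of the related ligands PGF, VEGFD and ANGPT4, and of the receptors. Black points and bars are the edgeR estimate and SE from 4 libraries, and coloured triangles are the estimates without 1 library. ANGPT1 ranges from 1.42 to 4.13 and VEGFD lies on both sides of 0, while the 5 receptors stay below 0.

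Pairing each ligand with its receptor inside a library shows the contrast without any scaling between libraries. The ratio of ANGPT1 to TEK counts was 17.2 and 11.8 in GFP-HI against 0.905 and 0.165 in GFP-NEG. The ratio of VEGFA to KDR counts was 4.30 and 1.19 against 0.168 and 0.128, and that of VEGFC to FLT4 counts was 3.11 and 3.07 against 0.441 and 0.200. In all of these the GFP-HI libraries lay above the GFP-NEG libraries. The mean log2 CPM of the 4 ligands minus that of the 5 receptors was 1.66 and 1.46 in GFP-HI against -0.69 and -1.51 in GFP-NEG. Since gene length enters these values, only their shift between the fractions can be read, not which genes are more abundant. The mean log2 CPM of the ligands was similar in 3 libraries (3.91 and 3.91 in GFP-HI against 4.01 in the first GFP-NEG library) and lower, at 2.87, in GFP-NEG replicate 2. The receptors' mean log2 CPM was 2.25 and 2.45 in GFP-HI against 4.70 and 4.38 in GFP-NEG.

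The receptors are genes of endothelial cells, so their levels were set beside endothelial markers. Of 13 blood endothelial markers tested, 11 were called lower in GFP-HI against 0 higher, with a median log2 fold change of -2.14. CLDN5, a junction protein, had a log2 fold change of -2.93, the vesicle diaphragm gene PLVAP of -2.66, VE-cadherin (CDH5) of -2.62 and the guidance receptor ROBO4 of -2.42, all called lower (edgeR adjusted p = 7e-05, 2.5e-05, 8e-05 and 0.032). PECAM1, which encodes CD31, stood at 59.8 and 83.3 CPM in GFP-HI against 328 and 198 CPM in GFP-NEG and fell by 1.88 (adjusted p = 0.0089, edgeR). PLVAP was called without each library in turn. The number of these markers called lower was 5 without GFP-HI replicate 1, and 2 without GFP-HI replicate 2 or without GFP-NEG replicate 1, fits with fewer libraries. Without GFP-NEG replicate 1 the log2 fold change was -1.85 for CLDN5 and, not called, -1.45 for CDH5, -1.41 for PECAM1 and -1.98 for ROBO4. Without GFP-HI replicate 2 the values were -2.55, -2.31, -2.07 and -3.21 for the same 4 genes, none called, and without GFP-HI replicate 1 PECAM1 (-1.54) and ROBO4 (-1.75) were not called.

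None of the blood endothelial markers was at 0 in any library. The exception to their direction was CLEC14A, singled out after its values were seen, at 228 and 287 CPM in GFP-HI against 259 and 35.3 CPM in GFP-NEG. It was not called (log2 fold change 0.81, adjusted p = 0.33, edgeR), but was called at 2.92 without GFP-NEG replicate 1. Without CLEC14A the summed marker level was 239 and 235 CPM in GFP-HI against 1560 and 652 CPM in GFP-NEG, 4.67 times higher in GFP-NEG on average. The summed level of the 5 receptors was 28.5 and 35.3 CPM against 189 and 134 CPM, 5.07 times higher in GFP-NEG. Fewer endothelial cells and less RNA per cell cannot be told apart in these sorted bulk samples.

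Dividing each receptor by this marker sum (without CLEC14A) in the same library left smaller differences. The log2 difference between GFP-HI and GFP-NEG was then -0.48 for KDR, -0.42 for FLT4, -0.39 for TEK, 0.24 for FLT1 and 0.52 for TIE1. On this sum, chosen after the values were seen, KDR alone of the 5 receptors kept its groups apart, with ratios of 0.0474 and 0.0618 in GFP-HI against 0.0676 and 0.0842 in GFP-NEG. With CLEC14A kept, as the list was first written, the log2 differences ran from -1.39 (KDR) to -0.40 (TIE1), and KDR, FLT1, FLT4 and TEK all had both GFP-HI libraries below both GFP-NEG libraries. Against PECAM1 alone they were -0.72 for KDR, 0 for FLT1 and 0.28 for TIE1. Against CDH5 alone they were -0.17, 0.55 and 0.83. KDR kept its groups apart against PECAM1 but not against CDH5. The size of these differences, and for FLT1 and TIE1 their sign, depended on the reference. The part of endothelial RNA in the receptor results was not tested further. For ANGPT2, also an endothelial product, the log2 difference was -1.92 against the full marker sum and -1.25 against PECAM1, with the groups apart in both. It was -1.01 against the sum without CLEC14A and -0.70 against CDH5, with overlapping groups in both.

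**Figure D3:**
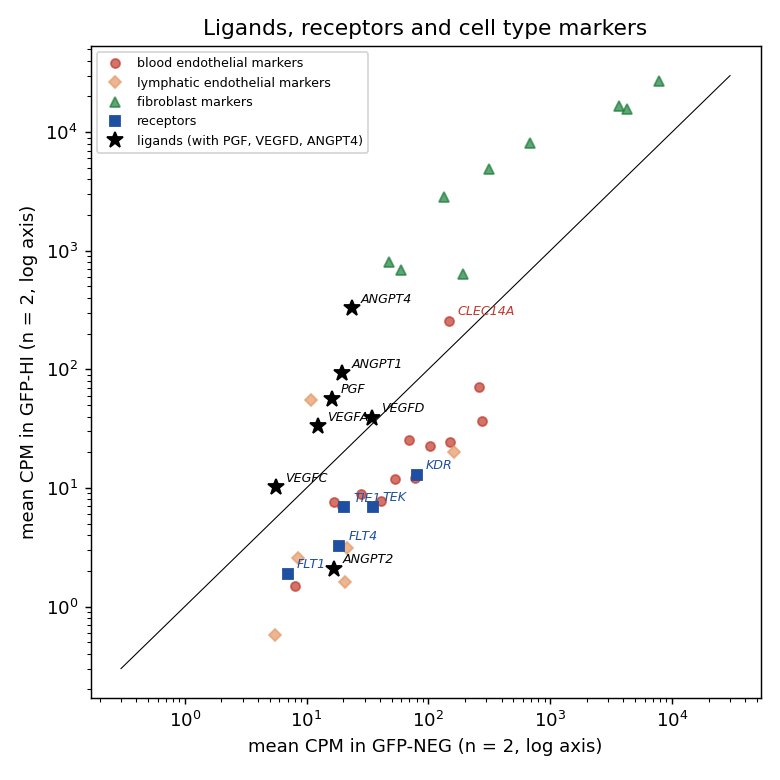
Mean CPM in GFP-HI against mean CPM in GFP-NEG (2 libraries each, log axes) for receptors (squares), ligands (stars), blood and lymphatic endothelial markers and fibroblast markers. The line marks equal levels. The 5 receptors and ANGPT2 lie among the endothelial markers under the line, the other ligands lie above it, and CLEC14A is the blood endothelial marker above the line.

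Lymphatic endothelial markers bear on FLT4. Of 6 tested, 4 were called lower in GFP-HI against 1 higher. MMRN1 fell by 3.69, RELN by 3.26, CCL21 by 3.01 and LYVE1 by 2.78 on the log2 scale (adjusted p from 8.8e-06 to 0.018, edgeR). MMRN1 and CCL21 were called without each library in turn, CCL21 at -1.85 without GFP-NEG replicate 1. LYVE1 was not called without that library (-1.41) or without GFP-HI replicate 1 (-2.31), and RELN was called only without GFP-NEG replicate 1 among these 4 fits, with values from -3.35 to -2.93. PROX1, the transcription factor that defines this cell type, was at 1.99 and 3.17 CPM in GFP-HI against 5.74 and 11.4 CPM in GFP-NEG, and was not called (adjusted p = 0.10, edgeR). PROX1 and FLT4 were both highest in GFP-NEG replicate 2. PDPN, which is also expressed by fibroblasts and alveolar epithelium, was the tested member that rose, by 2.33 (adjusted p = 0.00018, edgeR). PDPN was at 1.88 without GFP-NEG replicate 2, not called. FOXC2, listed but not tested because of low counts, also lay higher in GFP-HI, with 17 and 8 counts against 1 and 2 in GFP-NEG. None of the 7 listed genes was at 0 in a library, and the summed level was 60.8 and 106 CPM in GFP-HI against 329 and 129 CPM in GFP-NEG. PDPN made up most of the GFP-HI sums: without it they were 20.8 and 36.2 CPM against 315 and 122 CPM. The log2 difference of FLT4 relative to the sum of these markers was -1.15 with PDPN and 0.32 without it. The groups overlapped in both, so the sign against the sum depended on that gene. Per count of PROX1 alone, FLT4 was 1.82 and 0.906 in GFP-HI against 2.76 and 1.88 in GFP-NEG. That log2 difference was -0.82, with the groups apart by a small margin.

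Leukocytes express some genes of this system as well. Of 9 leukocyte markers, 6 were called lower in GFP-HI against 0 higher. CD79A, CD68 and MARCO were not called, at log2 fold changes of -0.60, -0.78 and -0.74 with overlapping groups (adjusted p = 0.46, 0.25 and 0.28, edgeR). PTPRC, which encodes CD45, fell by 3.51 on the log2 scale (adjusted p = 0.00016, edgeR). The summed leukocyte level was 312 and 371 CPM in GFP-HI against 2620 and 2740 CPM in GFP-NEG, and none of the 9 genes was at 0. Its part in the receptor results was not tested.

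On the ligand side, the cells that commonly make ANGPT1 are fibroblasts and mural cells. Of 9 fibroblast markers, 6 were called higher and 0 lower. All 9 had both GFP-HI libraries above both GFP-NEG libraries, an arrangement found in 27.7% of all tested genes. PDGFRA stood at 822 and 563 CPM in GFP-HI against 97.2 and 22.7 CPM in GFP-NEG, and PDGFRB at 704 and 387 CPM against 154 and 30.8 CPM. Both rose, by 3.53 and 2.56 on the log2 scale (adjusted p = 6.8e-05 and 0.0015, edgeR). Without GFP-NEG replicate 2 neither was called (2.79 and 1.79), PDGFRB was at 4.20 without GFP-NEG replicate 1, and it was not called without GFP-HI replicate 1 (2.16). GFP-NEG replicate 1 carried more of ANGPT1, VEGFA, PDGFRA and PDGFRB than GFP-NEG replicate 2.

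Per count of PDGFRA, ANGPT1 was 0.0851 and 0.207 in GFP-HI against 0.350 and 0.242 in GFP-NEG, so that ANGPT1 differed between the fractions by less than PDGFRA did. Against PDGFRB the ANGPT1 ratios overlapped between groups (0.0993 and 0.301 against 0.221 and 0.178). VEGFA per PDGFRB count was 0.0691 and 0.0446 in GFP-HI against 0.115 and 0.228 in GFP-NEG. The part of fibroblast RNA in the GFP-NEG libraries in these results was not tested.

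Mural markers did not move as a group. Of 10 pericyte and smooth muscle markers tested, 2 were called higher and 3 lower. PDGFRB and CSPG4, both also expressed by fibroblasts, were the higher ones (CSPG4 by 1.96, adjusted p = 0.0095, edgeR). MYH11, the smooth muscle myosin, fell by 2.34, the pericyte gene RGS5 by 2.10 and ABCC9, a potassium channel subunit, by 1.58 (adjusted p of 0.00039, 0.001 and 0.045, edgeR). Without GFP-NEG replicate 1 these 3 were at -0.62, -1.59 and -0.51, none called. MYH11 and ABCC9 were also not called without either GFP-HI library (MYH11 -2.59 and -2.02, ABCC9 -1.40 and -1.59). RGS5 was at -1.23 without GFP-HI replicate 1, not called, and at -3.64 without GFP-HI replicate 2. When replicate number was a block, ABCC9 lost its call (adjusted p = 0.061, edgeR). NOTCH3, a mural receptor, was at 1.20 and not called with all 4 libraries unpaired. With the block NOTCH3 was called higher at 1.33 (adjusted p = 0.041, edgeR), as it was at 2.2 without GFP-NEG replicate 1. CSPG4 was not called without GFP-HI replicate 1 (1.28) or GFP-NEG replicate 2 (1.34), and was at 2.99 without GFP-NEG replicate 1. Platelets also store ANGPT1, and of 4 tested platelet and megakaryocyte markers 0 were called by edgeR, 0 had an unadjusted p under 0.05 and 0 were called by DESeq2. Their median log2 fold change was 0.94, and the part of platelet RNA in the ANGPT1 levels was not tested.

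The remaining ligands of the family were more abundant in GFP-HI where they changed. ANGPT4, the third angiopoietin that binds TEK, stood at 422 and 235 CPM in GFP-HI (9307 and 4732 counts) and at 36.6 and 10.4 CPM in GFP-NEG (236 and 95 counts). The groups were far apart in every library. ANGPT4 rose by 3.81 ± 0.68 on the log2 scale (SE, adjusted p = 9.7e-07, edgeR), more than any of the 9 members, and it was called in all 13 alternatives with values from 3.12 to 5.03. Per count of PDGFRA, ANGPT4 was 0.513 and 0.417 in GFP-HI against 0.377 and 0.459 in GFP-NEG, with overlapping groups. Per count of the summed fibroblast markers it was 0.00516 and 0.00324 in GFP-HI against 0.00145 and 0.00115 in GFP-NEG. The groups were apart there and per PDGFRB count, so their separation depended on the reference.

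PGF, a ligand of FLT1, stood at 68.8 and 44.5 CPM in GFP-HI against 23.3 and 9.21 CPM in GFP-NEG. Both GFP-HI libraries were the higher ones, and PGF rose by 1.81 ± 0.53 on the log2 scale (SE, adjusted p = 0.0031, edgeR). Without GFP-NEG replicate 2 it was 1.24 (adjusted p = 0.39) and without GFP-HI replicate 1 it was 1.57 (adjusted p = 0.086, edgeR), neither called. VEGFD, the second ligand of FLT4, was at 32.3 and 46.1 CPM in GFP-HI against 61.6 and 7.34 CPM in GFP-NEG, so that GFP-NEG held both its highest and its lowest level. Its log2 fold change of 0.19 was not called (adjusted p = 0.81, edgeR), but was 2.47 without GFP-NEG replicate 1 (adjusted p = 0.011) and -0.69 without GFP-NEG replicate 2, not called.

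**Figure D4:**
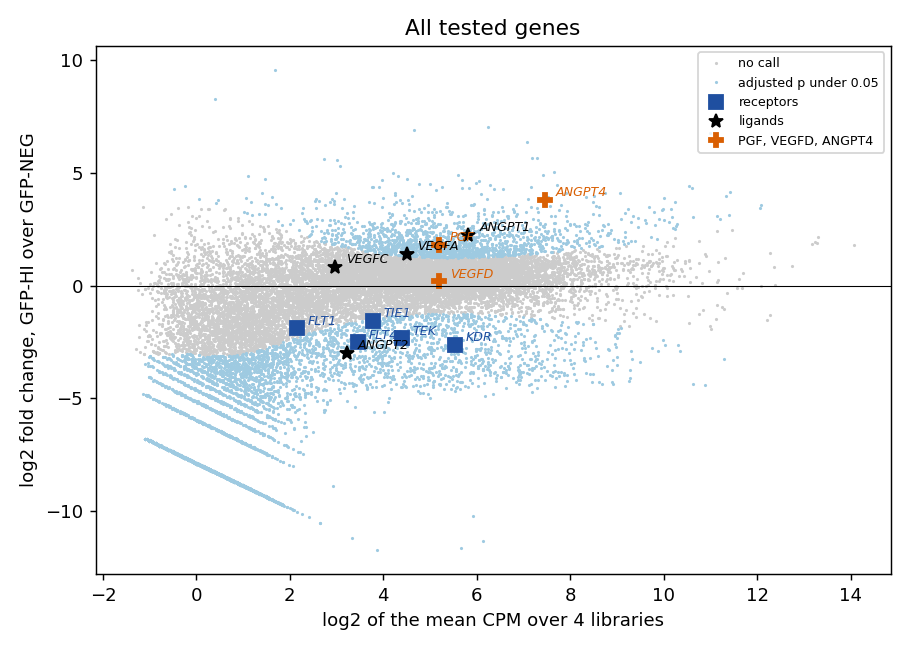
Log2 fold change (GFP-HI over GFP-NEG) against log2 of the mean CPM over 4 libraries for the 19682 tested genes, with genes at an adjusted p under 0.05 in light blue. Receptors (squares) and ANGPT2 lie among the lower genes. VEGFA, at 1.42, lies near the lower edge of the higher genes, ANGPT1 lies at 2.24 and ANGPT4 at 3.81.

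Across the wider pathway, 63 further genes were listed by role, of which 58 were tested, with 12 called higher, 12 lower and a median log2 fold change of 0.19. As for every list above and below, the background is the 8.35% of all tested genes called higher and the 27.6% called lower. The background medians are -0.25 over all tested genes and 0.33 over those with a symbol and at least 2 CPM. Of 11 co-receptors and extracellular regulators, 6 were called higher and 0 lower. The semaphorins SEMA3A, SEMA3G and SEMA3F, secreted ligands of neuropilins and plexins, rose by 2.76, 2.43 and 1.84 in log2 fold change (edgeR adjusted p = 3.4e-05, 0.00011 and 0.049). SEMA3C, of the same class, was not called (0.49, adjusted p = 0.52, edgeR), with overlapping groups, and was at -0.42 without GFP-NEG replicate 2 and called at 3.10 without GFP-NEG replicate 1. VASH2, a tubulin carboxypeptidase of the vasohibin family, rose by 1.72 (adjusted p = 0.0084, edgeR). Without GFP-NEG replicate 2 none of SEMA3A, SEMA3G, SEMA3F and VASH2 was called (2.14, 1.83, 1.30 and 1.33), and without GFP-HI replicate 1 SEMA3F (1.19) and VASH2 (0.90) were not. DESeq2 called 3 of the 11 genes, and SEMA3F was not among them (adjusted p = 0.075).

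The VEGF co-receptor NRP1 stood at 329 and 187 CPM in GFP-HI against 153 and 25.7 CPM in GFP-NEG. It was called at a log2 fold change of 1.53 ± 0.62 (SE, adjusted p = 0.038, edgeR), but not by DESeq2 (adjusted p = 0.086), nor without GFP-HI replicate 1 (1.15), GFP-HI replicate 2 (1.92) or GFP-NEG replicate 2 (0.72). Without GFP-NEG replicate 1 it was 3.38. Its relative NRP2, which binds VEGFC, had a log2 fold change of 0.77 and was not called (adjusted p = 0.27, edgeR). PTPRB, the phosphatase that restrains TEK in endothelium, was at 11.5 and 19.7 CPM in GFP-HI against 44.9 and 19.3 CPM in GFP-NEG, with overlapping groups and no call (log2 fold change -1.04, adjusted p = 0.13, edgeR). SVEP1, a matrix protein, was also called higher, at 273 and 145 CPM against 112 and 26.9 CPM (log2 fold change 1.59, adjusted p = 0.024, edgeR). It was not called by DESeq2 (adjusted p = 0.054) nor without GFP-HI replicate 1 (1.16), GFP-HI replicate 2 (2.02) or GFP-NEG replicate 2 (0.86), and was at 3.01 without GFP-NEG replicate 1. PTPRB was called lower under scaling by library totals (adjusted p = 0.036).

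Of 9 tested genes of receptor signalling and response, 5 were called lower and 1 higher. The adaptor SH2D2A fell by 4.50, the adaptor DOK2 by 2.62, endothelial nitric oxide synthase (NOS3) by 2.33 and NOTCH4 by 2.16 in log2 fold change (edgeR adjusted p = 2.6e-08, 0.0002, 0.01 and 0.0013). SH2D2A and DOK2 are also expressed by lymphocytes and myeloid cells, and 6 of the 9 leukocyte markers were called lower. The part of leukocyte RNA in the results of these adaptors was not tested. SH2D2A and DOK2 were called without each library in turn. NOS3 (-1.27) and NOTCH4 (-1.70) were not called without GFP-NEG replicate 1, nor NOS3 without GFP-HI replicate 1 (-1.80) or NOTCH4 without GFP-HI replicate 2 (-1.70). The adaptor SHB rose by 2.23 (adjusted p = 0.015, edgeR). It was at 4.33 without GFP-NEG replicate 1 and was not called without GFP-HI replicate 1 (1.63) or GFP-NEG replicate 2 (1.34), nor by DESeq2 (adjusted p = 0.053). ESM1, a tip cell product, was at 5.53 and 13.8 CPM in GFP-HI against 8.85 and 1.53 CPM in GFP-NEG and was not called (adjusted p = 0.37, edgeR) except without GFP-NEG replicate 1 (2.70).

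Of 11 tested transcription factors known in endothelium, 6 were called lower and 1 higher. FLI1 fell by 2.86, ETS1 by 2.42 and KLF2 by 2.02 (adjusted p of 1.5e-05, 0.001 and 0.0023, edgeR), and FLI1 and ETS1 are also factors of blood cells. With replicate number as a block 5 were called lower: LYL1, with 5 and 0 counts in GFP-HI against 7 and 15 in GFP-NEG, lost its call there (adjusted p = 0.16, edgeR) and under DESeq2 (adjusted p = 0.17). ETS1 (-2.18) and KLF2 (-1.57) were not called without GFP-HI replicate 2, nor without GFP-NEG replicate 2 (-1.98 and -1.66). SOX17, an arterial endothelial factor, had 0 and 1 counts in GFP-HI against 5 and 33 in GFP-NEG. GATA2 went the other way, at 251 and 168 CPM in GFP-HI against 34.8 and 11.9 CPM in GFP-NEG, and rose by 3.17 (adjusted p = 8.1e-06, edgeR). FLI1 and GATA2 were called without each library in turn. ERG, an endothelial ETS factor, was at 22.2 and 22.3 CPM in GFP-HI against 32.8 and 6.58 CPM in GFP-NEG and was not called (adjusted p = 0.83, edgeR).

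VEGFA is a classical target of the hypoxia response, so genes of that response were listed. Of 15 tested, 1 was called higher and 1 lower, with a median log2 fold change of -0.45. DESeq2 called 0 higher and 3 lower, as did edgeR with upper-quartile scaling and with library totals alone. The added lower genes were the glycolytic enzymes LDHA and ALDOA (DESeq2 adjusted p = 0.016 and 0.034), which edgeR with TMM scaling put at -1.56 and -1.35 without a call (adjusted p = 0.10 and 0.088). The peptide hormone gene ADM, at 169 and 63.3 CPM in GFP-HI against 80.4 and 12.4 CPM in GFP-NEG, had overlapping groups like VEGFA and was called at 1.33 ± 0.54 (SE, adjusted p = 0.043, edgeR), but not by DESeq2 (adjusted p = 0.17). ADM was at 0.54 without GFP-HI replicate 1, 1.90 without GFP-HI replicate 2 and 0.49 without GFP-NEG replicate 2, not called in these, and at 3.28 without GFP-NEG replicate 1. PFKFB3, a regulator of glycolysis, fell by 1.63 (adjusted p = 0.0072, edgeR), and was not called without GFP-HI replicate 2 (-1.05) or GFP-NEG replicate 2 (-1.35).

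Alveolar type 1 markers, listed because that cell type makes VEGFA, were called in 1 of 5 cases: EMP2, a membrane protein, rose by 1.75 (adjusted p = 0.037, edgeR). EMP2 was at 3.80 without GFP-NEG replicate 1 and was not called without any other single library (1.49, 2.05 and 0.90). AGER, a marker of that cell type, was at 103 and 13.0 CPM in GFP-HI against 113 and 13.9 CPM in GFP-NEG. As for VEGFA, replicate 1 was the higher library in both fractions. The part of alveolar type 1 RNA in the VEGFA levels was not tested.

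The 8 angiopoietin-like genes, relatives that do not bind TEK, had 6 tested members, of which ANGPTL1 was called higher at 1.47 ± 0.54 (SE, adjusted p = 0.021, edgeR) and 0 were called lower. With replicate number as a block ANGPTL2 was called too, at 1.40 (adjusted p = 0.034, edgeR), as it was at 2.45 without GFP-NEG replicate 1, but not with all 4 libraries unpaired (1.14, adjusted p = 0.072, edgeR). ANGPTL1 lost its call without GFP-HI replicate 1 (1.32), GFP-HI replicate 2 (1.70) or GFP-NEG replicate 2 (0.61), and under DESeq2 (adjusted p = 0.12), and was at 3.58 without GFP-NEG replicate 1. Of the 3 genes for VEGFC processing (CCBE1, ADAMTS3 and ADAMTS14), 0 were called by edgeR or by DESeq2, and 1 had an unadjusted p under 0.05 (ADAMTS14, log2 fold change 1.41, adjusted p = 0.089, edgeR). ADAMTS3, the protease that activates VEGFC, was called at 2.19 without GFP-NEG replicate 1, and ADAMTS14 was called when replicate number was a block (adjusted p = 0.049).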

How the data were processed

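Per the submitters' processing notes, the authors counted reads per gene with featureCounts (Subread 1.5.2) and used DESeq2 1.37.6. The aligner, build and strand setting are not given in the sources used here, so overlapping and antisense genes are uncertain. The authors deposited whole-number counts per library and, per the file headers, a table with a log2 fold change and an adjusted p-value for 16250 genes. The 4 normalized columns of that table were not used, because 2 of them carry another library's counts than their heading names. PGF was among 834 identifiers renamed with the gene name table provided.

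Counts were tested with edgeR 4.0.16 (R 4.3.3): TMM scaling, filterByExpr, quasi-likelihood F test with group as the only term, Benjamini-Hochberg adjustment, threshold 0.05. SE is the log2 fold change over the square root of F. The prior degrees of freedom were infinite, so a gene's own scatter weighed little. An exact permutation of 2 libraries against 2 cannot go below p = 0.333. Alternatives were DESeq2 1.42.0, other scalings and filters, thinned GFP-HI counts, leaving out each library and a replicate block. Headings name pig 1 and pig 2 in both fractions, which was taken as pairing for the replicate block (correlation of replicate deviations 0.19 across genes). The sample labels give replicate numbers only, so pairing by pig was not established. The edgeR procedure was tested on simulated data. It called 19.6% of the tested genes given a log2 change of 2 in either direction and 55.6% of those given 3. Of its calls, 3.9% were genes given no change. A missing call therefore does not show that a gene was unchanged.

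The members and lists were chosen with earlier results of these data known. Named genes are the members, LGR5, preset partners and markers, and up to 4 called genes in each direction of a list by fold change with a mean of at least 1 CPM. SVEP1, SEMA3C, CLEC14A, CD79A, CD68, MARCO, NOTCH3, LYL1, LDHA, ALDOA, ANGPTL2, ERG, ESM1, AGER, FOXC2, the ANGPT4 ratios, the lymphatic marker sum without PDPN and the genes of VEGFC processing were named after their values were seen.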

Additional observations from a re-analysis of the deposited data

How the results depend on the processing

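All 117 values of the 9 members under 13 alternatives kept their direction, and 101 kept their side of the threshold. The count of receptors called lower was 4 and ranged from 2 to 3 when a library was left out, that of ligands called higher was 2 and ranged from 0 to 2, and that of ligands called lower stayed at 1. Ligands called higher numbered 1 under upper-quartile scaling, library totals alone, a filter of 1 CPM in 2 libraries, DESeq2 (with and without the block) and thinned GFP-HI counts, VEGFA being the one lost. With the replicate block (libraries paired by replicate number) the fit called 4 receptors lower, 2 ligands higher and 1 lower, and this changed no call of a member. Over all tested genes 1643 were higher, with 1083 under upper-quartile scaling and 888 under library totals (the median log2 fold change moved from -0.25 to -0.58 and -0.68, and higher genes from 23.2% of calls to 16.1% and 13.4%). Lower genes numbered 5433, with 3616 after thinning and 3279 under DESeq2 with the block. Leaving out a library gave 216 to 1635 higher and 1575 to 4999 lower genes, in fits where 1 group is a single library assumed to vary like the other group. Pathway partners called higher were 12, with 5 under library totals, 6 under DESeq2 and 6 after thinning, and 2 to 17 without a library, while those called lower were 12 and 4 to 8. Blood endothelial markers called lower were 11, with 6 under DESeq2 with the block and 2 to 10 without a library, and those called higher 0 to 1. AGER, at -0.13 and not called, ranged from -2.21 to 2.12 without a library, and was called at 2.12 without GFP-NEG replicate 1. The cause of these shifts was not tested. The 3 added alternatives (DESeq2 with the block, and the marker sums without CLEC14A and without PDPN) were chosen after seeing the data. In GFP-NEG, VEGFC and VEGFA rest on 39 to 114 counts a library, and FLT1 rests on 38 to 57 counts in every library.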

Other observations

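Count ratios within the receptor family were set side by side, with no test. FLT1 counts per KDR count were 0.168 and 0.130 in GFP-HI against 0.0839 and 0.0958 in GFP-NEG, and TIE1 counts per TEK count were 1.84 and 0.628 in GFP-HI against 0.570 and 0.581 in GFP-NEG. The log2 difference was 0.72 for FLT1 to KDR, with a GFP-HI SD of 0.26. For TIE1 to TEK it was 0.90, less than the GFP-HI SD of 1.10, and GFP-HI replicate 2 lay close to both GFP-NEG libraries. FLT1 rests on 38 to 57 counts a library.

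Ratios of ANGPT4 to other genes are read between libraries only, as counts are not corrected for gene length. ANGPT4 counts per ANGPT1 count were 6.03 and 2.02 in GFP-HI against 1.08 and 1.90 in GFP-NEG, so that the groups were apart by a small margin. ANGPT4 per ANGPT2 count was 321 and 81.6 in GFP-HI against 2.29 and 0.601 in GFP-NEG. Per PDGFRB count, ANGPT4 was 0.599 and 0.607 in GFP-HI against 0.238 and 0.338 in GFP-NEG. These ratios were chosen after the levels were seen and carry no test.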
